A study of Ailuropoda melanoleuca with 25 samples.

Results

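The genes described here carry the names of drug and steroid metabolism enzyme families in giant panda tissues. They were selected on the tissue differences of these same libraries: the study's list of tissue-specific genes, which holds 2814 genes, pairs 1778 of them with a name, and a gene was taken when its name began with a family symbol of this kind (CYP, UGT, GST, SULT, ALDH, FMO, CES, AKR, HSD, ADH, EPHX, NAT, GLYAT, or AOX, followed by a letter or digit). This gave 29 genes of the 25376 in the deposited table, and all 29 had values. They comprised 8 cytochromes P450, 5 hydroxysteroid dehydrogenases, 3 UDP-glycosyltransferases, 3 aldehyde dehydrogenases, 2 sulfotransferases, 2 aldo-keto reductases, 2 N-acetyltransferases, and 1 gene each of the carboxylesterases, glutathione S-transferases, and epoxide hydrolases. The remaining gene, FMOD, matched by its letters alone: it encodes fibromodulin, a collagen-binding matrix protein and no enzyme. Because the genes were chosen by differences between tissues, their levels by tissue are a description with no test. Genes of these families outside the list carry no name in the files and were not analysed here.

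Foreign compounds, steroids, and bile acids are usually cleared in steps. Cytochromes P450, hydroxysteroid dehydrogenases, aldo-keto reductases, aldehyde dehydrogenases, carboxylesterases, and epoxide hydrolases oxidize, reduce, or hydrolyse the molecule. UDP-glycosyltransferases, sulfotransferases, and glutathione S-transferases then join it to a polar group, so that it leaves in bile or urine. N-acetyltransferases add an acetyl group. The liver is known as the main site of these reactions, while the kidney, lung, and steroid-making cells hold particular members of the same families.

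RNA from 5 organs (heart, liver, spleen, lung, kidney) of each of 5 giant pandas was sequenced, giving 25 libraries with 1 per tissue and animal. Panda 1 was a female labelled age 27 that died of ovarian cancer, and panda 2 a female labelled age 9 with the cause of death given as "ileac pssion". Pandas 3 and 4 were females and panda 5 a male, all labelled age 0.5 and recorded as dying of coronavirus infection. The labels give no unit for age. The labelled ages fall with the causes and the years of death, so these cannot be told apart, and the labels name no treatment. Pandas 1 and 2 are called older here and pandas 3, 4, and 5 young. Each library is whole tissue, so fewer cells of a type and less RNA per cell cannot be told apart.

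Levels are FPKM, the reads on a gene scaled to its length and to the total of reads counted on genes. The reads behind the values totalled between 13149557 and 21383034 per library (median 16215796). The cardiomyocyte, kidney tubule, lung epithelium, and B cell marker lists each had their highest summed level in the libraries of the labelled tissue. Of the 8 hepatocyte markers 6 carry an identifier, and these summed to between 5371 and 50639 FPKM in the livers, with the lungs next at 3293 to 4914. The liver library of panda 3 stood apart: an unnamed gene took 31.0% of its reads, against 3.20% to 8.28% in the other 4 liver libraries, and the median gene with a liver mean above 1 FPKM was at 0.342 of its median in those libraries. Its size factor, the scale that would bring most genes level, was 0.208, against 0.584 to 0.671 in the other livers. In the kidney library of panda 4 the 9 tubule markers with an identifier summed to 1080 FPKM, against 8971 to 12884 in the other kidneys, and none was at 0.

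Of the 29 genes, 16 had their highest mean in the liver, 7 in the kidney, and 2 each in the heart, spleen, and lung. For 15 genes all libraries of the highest tissue lay above all 20 others, as they did for 16.7% of the 18701 genes that pass 1 FPKM on average in some tissue; the choice of the genes uses that contrast, and nothing is read from the comparison. With FPKM divided by size factors 21 genes were apart in this way, CYP2J2 and ALDH5A1 among them. The 28 enzymes, chosen for tissue differences with 15 of the 38 entries on the list made for the liver, summed to 3291 ± 768 FPKM in the liver (SD, n = 5), followed by the kidney with 1010 ± 474 FPKM. The lung had 209 ± 29.6, the spleen 105 ± 26.9, and the heart 51.0 ± 15.96 FPKM. In the liver 64.2% of the sum came from CYP2E1, HSD17B14, and UGT1A1, and in the kidney NAT8 alone gave 29.4%. A mean above 1 FPKM was reached in every tissue by 3 genes and in 1 tissue only by 11.

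**Figure D1:**
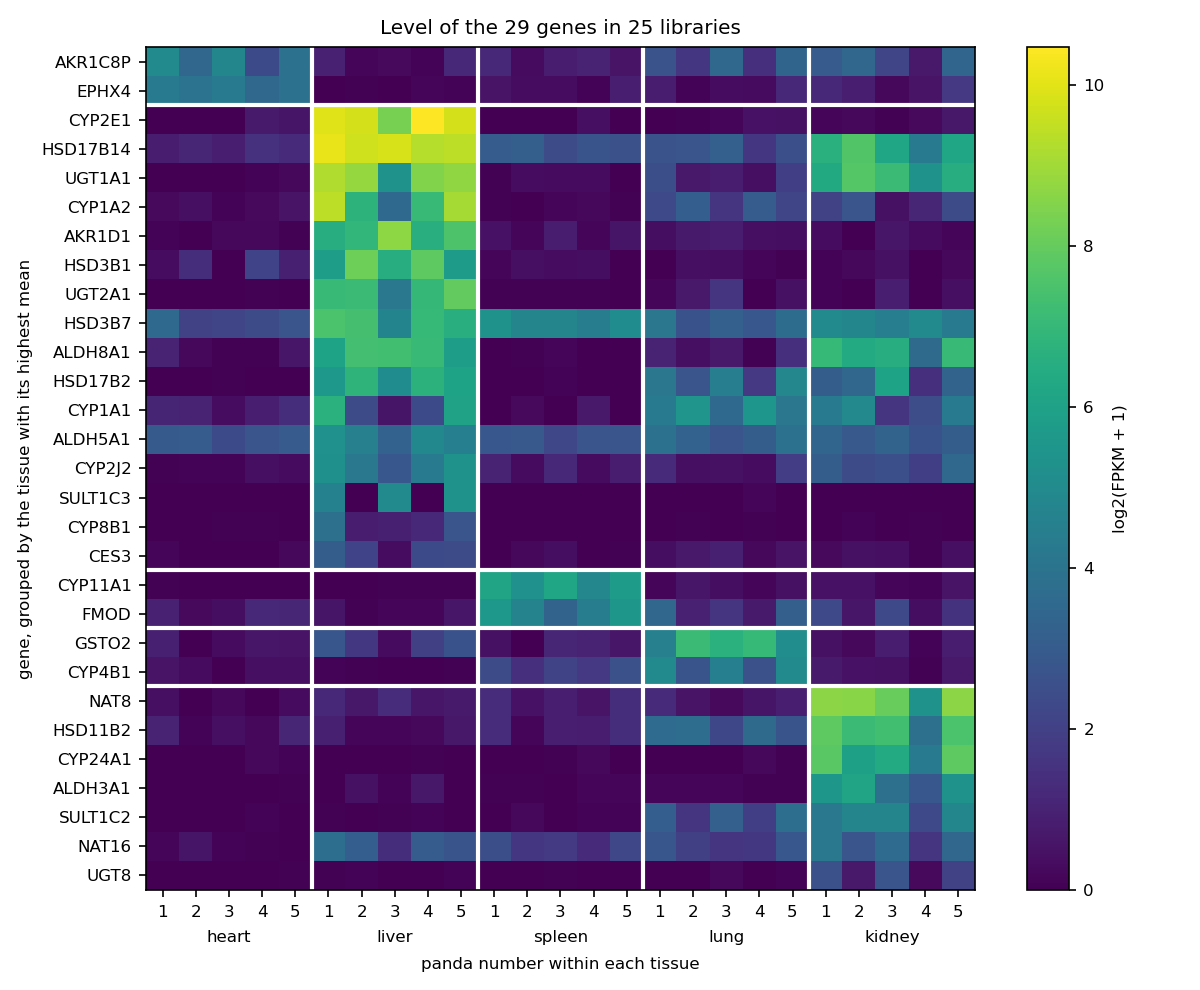
Level of each of the 29 genes as log2(FPKM + 1), shown by colour, in the 25 libraries. Columns are pandas 1 to 5 within each tissue, and rows are grouped by the tissue with the highest mean, with the 16 liver genes the largest block, 7 kidney genes next, and 2 genes for each other tissue.

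The list entered 20 of the genes for 1 tissue and 9 for a pair of tissues, 38 entries in all. In 26 entries the gene was highest in the listed tissue, in 8 it lay between, and in 4 it was lowest there. The low entries were NAT16 in the heart and ALDH8A1, CYP1A1, and CYP1A2 in the spleen. The list rests on comparisons of tissue pairs with a fold and a p threshold. On the log2(FPKM + 1) scale the entries nearest to another tissue were CYP1A2 in the spleen (-0.22 against the heart) and ALDH8A1 in the spleen (-0.36 against the heart). Among entries for the highest tissue they were ALDH5A1 in the liver (1.11 against the lung) and AKR1C8P in the heart (1.37 against the kidney). Differences of low levels are understated on this scale. Mean ALDH8A1 was 0.0303 FPKM in the spleen and 0.368 in the heart, and mean CYP1A2 0.0701 and 0.254. Genes just outside the list have no names in the files.

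CYP2E1, which oxidizes ethanol and other small molecules, shared the top of the group in the liver with HSD17B14. By mean FPKM it led, at rank 179 of all genes there, while without panda 4 (776 against 887 FPKM) or with FPKM divided by size factors (1653 against 1914) HSD17B14 did. Its level was 993, 893, 323, 1414, and 895 FPKM in the livers of pandas 1 to 5. The lowest of these, panda 3, still exceeded every other tissue, where the gene stayed between 0 and 0.683 FPKM.

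CYP1A2 and CYP1A1, the enzymes that oxidize planar aromatic compounds, spread widely between animals. In the liver CYP1A2 was at 681, 107, 11.0, 134, and 538 FPKM in pandas 1 to 5, and CYP1A1 at 101, 4.26, 0.504, 4.12, and 63.5 FPKM. Pandas 1 and 5 were highest and panda 3 lowest for both genes. The order of the tissues differed between the genes. CYP1A2 was a liver transcript, with a mean of 294 ± 296 FPKM there, while the lung had 4.90 ± 2.46 and the kidney 2.96 ± 2.18 (SD, n = 5). CYP1A1 was at 34.6 ± 45.3 FPKM in the liver, the lung had 26.7 ± 15.8, and the kidney 14.6 ± 11.3, and the ranges of these 3 tissues overlap. Its place as highest in the liver rests on 2 animals: without panda 1 the liver mean was 18.1 FPKM against 28.8 in the lung, without panda 5 it was 27.4 against 29.2, and by medians it was 4.26 against 18.4.

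The ratio of both genes turned over between tissues. CYP1A2 exceeded CYP1A1 by 6.77, 25.02, 21.8, 32.5, and 8.47 times in the livers of pandas 1 to 5. In the lung CYP1A1 exceeded CYP1A2 by 4.62, 5.58, 5.34, 6.18, and 4.75 times, and in the kidney by 5.99, 5.15, 5.15, 3.78, and 4.20 times. So every liver library fell on the CYP1A2 side and every lung and kidney library on the CYP1A1 side, also where the levels of both genes differed severalfold between animals. In the heart the levels were low, from 0.258 to 1.59 FPKM for CYP1A1 and 0.0783 to 0.474 for CYP1A2, on the CYP1A1 side in all 5 animals. CYP1A2 rested on 2 to 13 reads per heart, and the heart of panda 3 had 5 reads of CYP1A1 and 2 of CYP1A2. These are closely related genes, reads could be split between them, and the part of such reads in the steady ratio was not tested.

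**Figure D2:**
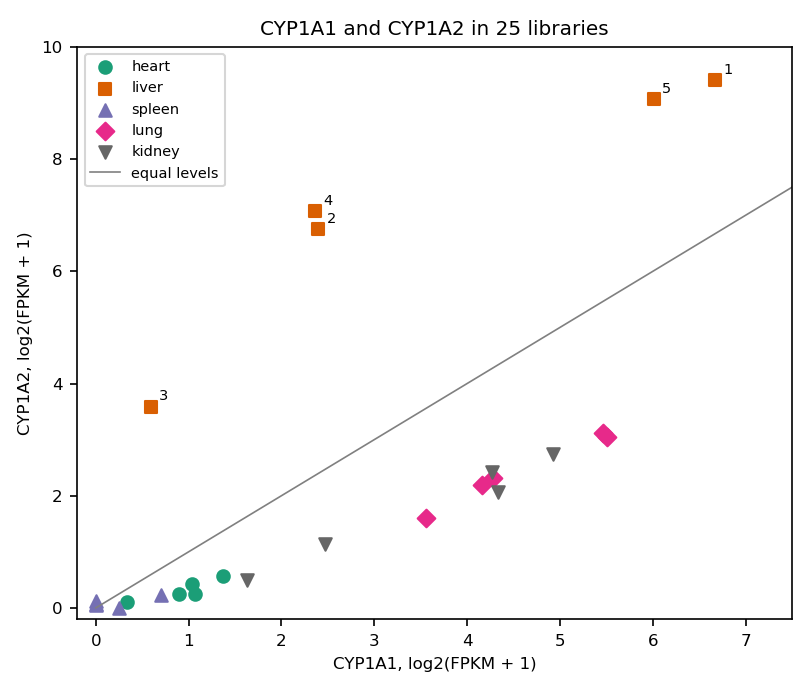
CYP1A1 (horizontal axis) and CYP1A2 (vertical axis), both as log2(FPKM + 1), with 1 point per library, the tissue by colour and shape, and panda numbers beside the liver points. The 5 liver points lie above the line of equal levels and all lung, kidney, and heart points below it.

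CYP2J2, an epoxygenase of arachidonic acid, was at 36.7, 17.0, 6.20, 19.6, and 41.1 FPKM in the livers of pandas 1 to 5 and at 7.54, 4.20, 4.94, 2.82, and 10.2 FPKM in the kidneys. Within every animal the liver exceeded the kidney, though the ranges of the 2 tissues overlap on FPKM as deposited. In the heart, a tissue for which the human gene is known, it stayed between 0.0389 and 0.356 FPKM. CYP4B1, a P450 of the airways that oxidizes fatty acids and plant toxins, was highest in the lung at 31.4, 5.50, 22.1, 5.04, and 30.6 FPKM. Pandas 2 and 4 were the low animals. The spleen came next with 1.73 to 5.05 FPKM, and the liver was at 0 to 0.0693.

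Bile acid synthesis was represented by 3 liver genes. HSD3B7 oxidizes the sterol ring early in the pathway, AKR1D1 reduces its double bond, and CYP8B1 adds the hydroxyl group that makes cholic acid. AKR1D1 was at 91.9, 120, 408, 94.7, and 186 FPKM in the livers of pandas 1 to 5, and no other library exceeded 0.810. Panda 3, whose liver library had most genes low, held the highest AKR1D1 level. HSD3B7 was at 179, 167, 25.1, 129, and 94.0 FPKM in the same livers, so for this gene panda 3 was the lowest. Unlike AKR1D1 it was present in every tissue, with a mean of 29.04 ± 7.16 FPKM in the spleen and 26.0 ± 5.44 FPKM in the kidney, then 9.67 ± 4.64 FPKM for the lung and 5.54 ± 3.15 FPKM for the heart (SD, n = 5). The spleen and kidney did not differ beyond their spread. CYP8B1 was low and uneven, at 13.4, 0.789, 0.893, 1.33, and 5.81 FPKM in the livers. It had 0 reads in all 5 spleens, which allows up to between 0.115 and 0.148 FPKM per library, taking 3 reads as the limit that a count of 0 allows (counting error only).

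Beside these genes the bile acid receptor NR1H4 was at 31.1, 24.5, 52.0, 30.1, and 66.6 FPKM in the livers. NR0B2, the repressor that the receptor induces, was at 306, 521, 81.7, 440, and 164 FPKM. The livers with most NR0B2, those of pandas 2 and 4, were among the 3 with least CYP8B1. The liver of panda 3 had little of either on FPKM as deposited. The liver with most CYP8B1 (13.4 FPKM) held 306 FPKM of NR0B2, more than the liver of panda 3. The livers with most NR1H4, those of pandas 3 and 5, had the least NR0B2. In the kidney the mean of NR1H4 was 33.1 FPKM and that of NR0B2 1.29. A relation between the levels of these genes was not tested.

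Among the steroid enzymes, CYP11A1 cuts the side chain of cholesterol, the first step of steroid hormone synthesis. It was a spleen transcript here, at 68.1, 38.7, 71.0, 28.0, and 54.2 FPKM in pandas 1 to 5, while no library of another tissue exceeded 0.535. NR5A1, a nuclear receptor known from steroid-making cells and the vessels of the spleen, was at 177, 88.3, 96.1, 48.1, and 128 FPKM in the same spleens and at no more than 0.124 FPKM elsewhere. Panda 4 was lowest for both. HSD3B1, which catalyses the next step of hormone synthesis, was at 0 to 0.330 FPKM in the spleens. The 4 splenic stroma markers, NR5A1 among them, summed to 364 to 710 FPKM in the spleen. Of the 8 adrenal cortex markers 1 carries an identifier, NR5A1 itself, so the adrenal list gives no check.

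HSD3B1 was instead a liver transcript, at 55.9, 287, 91.5, 230, and 51.9 FPKM in pandas 1 to 5. HSD17B2, which inactivates estradiol and testosterone, was at 46.9, 110, 33.0, 104, and 65.5 FPKM. In both genes the livers of pandas 2 and 4 lay above the other 3, as they did for 24% of the 12355 genes with a liver mean above 1 FPKM. With FPKM divided by size factors this held for HSD17B2 but not for HSD3B1, where panda 3 (440) passed panda 4 (366). HSD17B2 was also found in the lung, at 2.34 to 28.0 FPKM, and in the kidney. The kidney of panda 3 held 65.5 FPKM of HSD17B2, against 1.62 to 9.82 in the other 4 kidneys, and lay within the range of the livers. Divided by size factors it was at 44.2, below the lowest liver at 70.0.

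HSD17B14, a dehydrogenase that oxidizes estradiol, was at 1116, 839, 909, 633, and 683 FPKM. These levels stayed close on FPKM as deposited, but divided by size factors they ran from 1007 to 4366, with panda 3 highest. The kidney came next with 100, 195, 71.3, 18.3, and 72.3 FPKM, and every other library was at 8.26 FPKM or less. HSD11B2, which protects the mineralocorticoid receptor by inactivating cortisol, was at 234, 139, 158, 13.7, and 181 FPKM in the kidneys of pandas 1 to 5. The lung followed at 3.76 to 12.3 FPKM, so that only the kidney of panda 4 came near the lung. CYP24A1, which degrades active vitamin D, was at 217, 59.96, 84.1, 18.3, and 232 FPKM in the kidneys, and no other library exceeded 0.177. The vitamin D receptor gene VDR was at 124, 101, 71.2, 16.4, and 61.6 FPKM in the same kidneys, with panda 4 lowest again.

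Of the conjugating enzymes that meet the name rule, UGT1A1, which glucuronidates bilirubin, was the most abundant by its highest mean. It was at 591, 453, 39.7, 355, and 422 FPKM in the livers and 81.8, 208, 138, 39.2, and 91.3 FPKM in the kidneys. The liver mean of 372 ± 205 FPKM (SD, n = 5) was 3.34 times that of the kidney, 112 ± 64.1. In panda 3 alone the kidney exceeded the liver, and with FPKM divided by size factors the liver led there too (191 against 92.8). UGT1A genes share exons in other mammals, and the count of this gene may hold reads of others of the locus. UGT2A1, known from the olfactory epithelium, was at 132, 141, 17.1, 126, and 246 FPKM in the livers and reached 2.09 FPKM at most elsewhere. UGT8 makes galactosylceramide, a lipid of myelin and kidney. It was low, at 5.08, 0.638, 5.76, 0.215, and 3.14 FPKM in the kidneys, and reached 0.169 FPKM at most elsewhere.

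The sulfotransferases differed in tissue. SULT1C2 was at 17.2, 26.4, 26.1, 3.98, and 26.8 FPKM in the kidneys and 7.63, 2.04, 8.29, 2.80, and 12.8 FPKM in the lungs, with kidney above lung in every animal. SULT1C3 separated the animals in the liver. It had 398, 538, and 790 reads (23.3, 31.6, and 40.4 FPKM) in the livers of pandas 1, 3, and 5 and 0 reads in those of pandas 2 and 4, which allows up to 0.162 and 0.206 FPKM in those libraries. Outside the liver the gene had 2 reads, in the lung of panda 4, and 0 in all other libraries. Pandas 2 and 4 are an older and a young female. Of the 18 genes that meet the name rule and have a liver mean above 1 FPKM, SULT1C3 was the only gene for which pandas 2 and 4 both lay below the others, against 11.9% of all genes above that level. Outside the name rule, LOC100470213 and LOC109488752, P450s of the study's list, were picked for the same order after their values were seen. Of the 15 family genes outside the rule with their highest mean in the liver, these alone had it, beside the same 11.9%. Nothing is read from them. LOC100470213 was at 59.7, 4.12, 17.5, 4.14, and 133 FPKM in the livers of pandas 1 to 5. LOC109488752 was at 77.9, 15.0, 32.6, 13.8, and 128 FPKM.

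GSTO2, an omega-class glutathione transferase that reduces dehydroascorbate, was the leading named enzyme of the lung at 22.4, 140, 103, 127, and 34.1 FPKM. The liver followed at 0.220 to 6.06 FPKM. NAT8, which acetylates cysteine conjugates to mercapturic acids in the proximal tubule, was at 398, 386, 258, 40.7, and 401 FPKM in the kidneys, against 1.60 at most elsewhere. NAT16, an acetyltransferase of histidine, was at 17.3, 5.78, 11.6, 1.96, and 9.94 FPKM in the kidneys and 12.9, 7.82, 1.61, 7.20, and 5.63 FPKM in the livers. Those ranges overlap, and which tissue leads depends on the scale: with FPKM divided by size factors the liver mean was 12.1 and the kidney mean 7.39. In the heart, for which the list names it, NAT16 was at 0 to 0.502 FPKM.

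The aldehyde dehydrogenases had 3 different patterns. ALDH3A1, which clears aldehydes from lipid peroxidation, was a kidney transcript at 45.5, 68.8, 13.4, 6.23, and 40.2 FPKM and reached 0.598 FPKM at most in other libraries. ALDH8A1, an enzyme of the kynurenine and retinoid routes, was at 66.2, 162, 157, 133, and 57.2 FPKM in the livers and 128, 84.4, 90.7, 11.2, and 137 FPKM in the kidneys. The pandas split here: the liver led in pandas 2, 3, and 4 and the kidney in pandas 1 and 5. Panda 1 turned with FPKM divided by size factors (98.6 in the liver against 92.5 in the kidney). ALDH5A1, which breaks down succinic semialdehyde from GABA, was expressed everywhere, at 24.1 ± 10.8 FPKM in the liver and between 5.61 and 10.1 on average in the other tissues (SD, n = 5). With FPKM divided by size factors its liver libraries, at 37.1 to 57.1, no longer overlapped the other tissues.

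In the heart, EPHX4, a relative of the epoxide hydrolases, was at 19.6, 15.1, 18.4, 10.4, and 14.5 FPKM, and no other library exceeded 2.33. AKR1C8P was at 31.6, 9.83, 27.1, 4.14, and 14.4 FPKM in the hearts, and its ranges in the lung (1.75 to 10.7) and kidney (0.628 to 9.82) overlap the lower hearts. Panda 4 had the lowest AKR1C8P level in the heart, lung, and kidney alike. The human gene of that name is a pseudogene. CES3, a carboxylesterase, had the lowest liver mean of the 16 liver genes (3.93 FPKM, against 4.44 for CYP8B1, which was the lower of both by medians), at 7.56, 3.26, 0.282, 4.13, and 4.39 FPKM. FMOD, the matrix gene, was at 47.4, 24.5, 9.07, 20.9, and 45.8 FPKM in the spleens, followed by the lung at 0.680 to 9.90.

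A further 17 genes of the study's list belong to the same families by their description but carry a locus number or no name, and so fall outside the rule. Of these, 15 had their highest mean in the liver, 1 in the lung, and 1 in the kidney. LOC100471068, described as a glutathione S-transferase of class A1, had the highest level of all, 2799 ± 914 FPKM in the liver (SD, n = 5). LOC100465091, a CYP2A13-like P450, was at 330, 765, 1339, 354, and 367 FPKM in the lungs, above each named gene of the group in every lung. LOC100472452, described as CYP2D15, was listed for all 5 tissues and ran from 212 ± 139 FPKM in the liver through the kidney, heart, and lung to the spleen, at 0.0488 to 0.387. LOC100468789, described as SULT1D1, was at 73.3, 51.3, 88.2, 10.4, and 135 FPKM in the kidneys, where panda 4 was lowest as for the named kidney genes.

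Some of these genes are neighbours. In the RefSeq annotation of the newer panda assembly, 17 of the 29 names and 13 of the 14 locus numbers were found, and UGT2A1 lies between SULT1B1 and LOC100464961, a UGT2B31. The next gene beyond is LOC100464709, another UGT of the list that is named here after its values were seen, and LOC100468789 adjoins SULT1B1 on its other side. The 3 UGT genes were liver transcripts. LOC100464961 was at 32.5, 4.94, 2.20, 7.07, and 66.6 FPKM in the livers and LOC100464709 at 136, 34.9, 25.1, 39.1, and 228 FPKM. In both, panda 5 was highest and panda 1 next, well above pandas 2 and 4, where UGT2A1 was nearly even between pandas 1, 2, and 4. LOC100468789 was a kidney transcript, at 2.34 to 9.98 FPKM in the livers. GSTO2 lies next to GSTO1, which carries no name in the files used.

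Single animals stood out within the liver and kidney. In the liver, panda 3 was lowest for 10 of the 16 genes with their highest mean there, against 64.6% of the 12355 genes with a liver mean above 1 FPKM. These genes were therefore low in panda 3 about as often as any gene. The 16 genes were at 0.0149 to 3.80 times the median of the other 4 livers (median 0.294), and the 6 hepatocyte markers with an identifier at 0.0683 to 0.232 times (median 0.148). The level of CYP1A1 was lowest relative to the other livers, followed by CYP1A2, CES3, and UGT1A1, while AKR1D1, SULT1C3, ALDH8A1, and HSD17B14 were above the median of the others. With FPKM divided by size factors the median of the 16 rose to 0.854 of the other livers, 9 were lower and 7 higher, the 6 markers stayed at 0.195 to 0.733 (median 0.448) and all genes were at 1.03, and the span from CYP1A1 (0.0419) to AKR1D1 (11.3) remained. CYP2E1 was then level with the other livers, at 1.03 times their median.

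At the upper end, panda 1 or 5 was highest in 11 of the same 16 genes, beside 51.2% of all genes above 1 FPKM. The 6 hepatocyte markers summed to 50639 and 48601 FPKM in the livers of pandas 1 and 5, against 5371 to 14997 in the other 3. The part of hepatocyte content or state in the spread of CYP1A2 and CYP1A1 between livers was not tested.

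**Figure D3:**
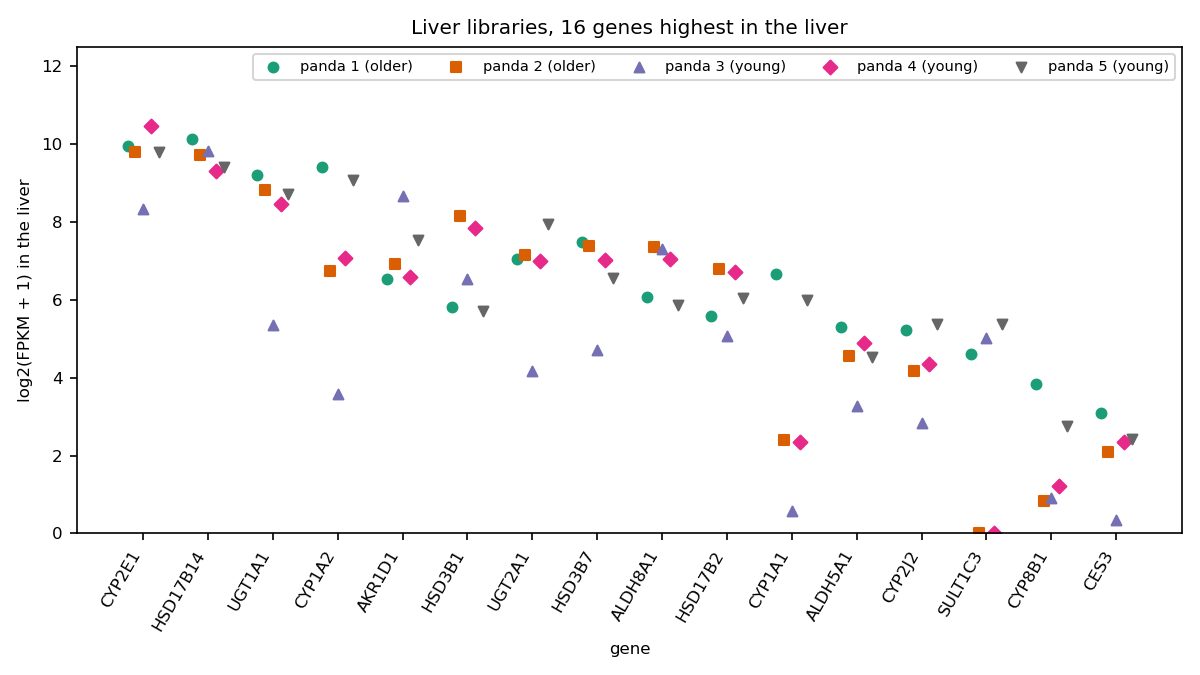
Level of the 16 genes with their highest mean in the liver, as log2(FPKM + 1), in the 5 liver libraries, with 1 point per panda. Panda 3 is lowest for 10 of the 16 genes but highest for AKR1D1, and SULT1C3 is at 0 in pandas 2 and 4.

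In the kidney, panda 4 was lowest for all 7 genes with their highest mean there, and for 15 of the 19 genes with a kidney mean above 1 FPKM, against 46.9% of all 15173 genes above that level. The 4 exceptions were CYP1A1, CYP1A2, EPHX4, and HSD3B7. The 7 kidney genes were at 0.0524 to 0.182 times the median of the other 4 kidneys (median 0.121), and the 9 tubule markers moved with them, at 0.0106 to 0.149 times (median 0.105). All genes with a kidney mean above 1 FPKM had a median of 0.637. With FPKM divided by size factors the 7 genes were at 0.0756 to 0.269 times and the markers at 0.0154 to 0.230 times. The part of tubule content in these low levels was not tested.

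**Figure D4:**
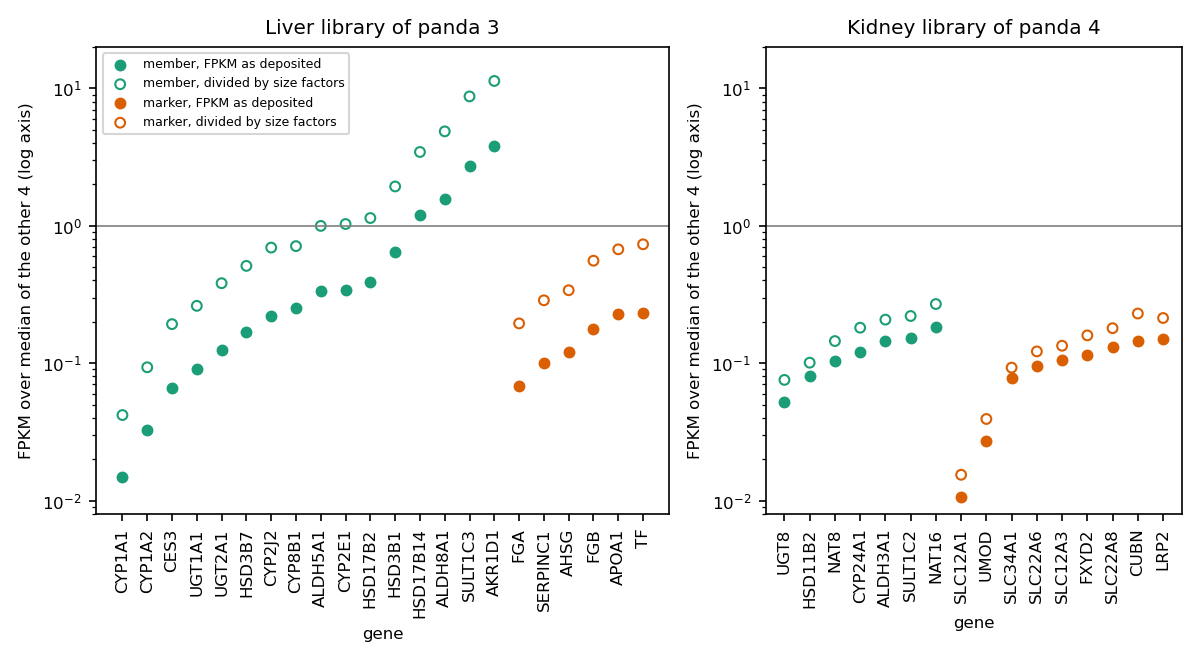
Level in the liver library of panda 3 (left) and the kidney library of panda 4 (right) divided by the median of the other 4 libraries of that tissue, on a log axis, for the genes with their highest mean there (green) and for cell type markers (orange). Filled points use FPKM as deposited and open points FPKM divided by size factors, and the line marks equal levels: all 7 kidney genes and 9 tubule markers lie below it, while the liver genes lie on both sides.

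In the lung, pandas 2 and 4 stood against the other 3. Of the 15 genes with a lung mean above 1 FPKM, 8 were lower in both (AKR1C8P, CYP2J2, CYP4B1, FMOD, HSD17B2, HSD3B7, SULT1C2, and UGT1A1), beside 33.6% of the 15858 genes above that level. CYP1A1, CYP1A2, and GSTO2 were higher in both, 3 of 15 beside 17.3% of all genes. The 7 lung epithelium markers with an identifier, of 8 listed, summed to 16333 and 22133 FPKM in pandas 2 and 4. They summed to 14867 FPKM in panda 3 and to 49421 and 46203 in pandas 1 and 5. The part of cell content in the order of the animals was not tested.

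Age class was compared within each tissue, the contrast that the choice of genes did not use. With limma on log2(FPKM + 1), adjusted over all genes tested, none of the 29 genes passed the test of older against young pandas in any tissue. This was 0 of 7 genes tested in the heart, 0 of 18 in the liver, 0 of 8 in the spleen, 0 of 15 in the lung, and 0 of 19 in the kidney, and 0% of all genes tested passed in each tissue. The count was also 0 in each tissue by limma-voom on recovered reads. At an unadjusted p below 0.05 there were 3 genes, all in the kidney, where 464 of 15607 genes tested (2.97%) reached that level. In the liver and lung 0.776% and 1.14% of all genes tested did so, and in the heart and spleen 4.44% and 10.5%.

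The 3 kidney genes were higher in the older pandas. ALDH3A1 was at 45.5 and 68.8 FPKM in the older kidneys and 6.23 to 40.2 in the young, a log2 difference of 1.81 ± 0.70 (SE, limma adjusted p = 0.984). HSD17B14 was at 100 and 195 FPKM against 18.3 to 72.3, a log2 difference of 1.59 ± 0.64 (limma adjusted p = 0.984). CYP1A1 was at 19.1 and 29.4 FPKM against 2.08 to 18.2, a log2 difference of 1.84 ± 0.78 (limma adjusted p = 0.984). On FPKM as deposited the older and young kidneys did not overlap for these genes. With FPKM divided by size factors they overlapped for ALDH3A1 (33.0 in panda 1, 33.2 in panda 5) and CYP1A1 (13.8 and 15.0). HSD17B14 stayed apart, with panda 1 at 72.7 and panda 5, the highest young kidney, at 59.7. In 17 of the 19 genes the mean was higher in the older kidneys, with a median log2 difference of 0.67, beside -0.03 and 48.1% higher over all genes tested. The size of this shift depends on the kidney library of panda 4, a young animal with low tubule markers. The part of tubule content in the shift was not tested. Without that library the median was 0.04 over these genes and -0.22 over all genes, and 10 of 19 were higher in the older kidneys. Then 242 of 15757 genes passed, none of them a gene of this group (smallest limma adjusted p = 0.0912, ALDH3A1). Without the kidney of panda 1 the count fell to 11 of 18 genes higher in panda 2 than in the young, while the medians were 0.74 and -0.26.

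In the liver the 3 genes with the smallest p were HSD3B7, UGT1A1, and NAT16, all higher in the older pandas on average. HSD3B7 had a log2 difference of 1.34 ± 0.75 (SE, limma adjusted p = 0.944), UGT1A1 of 1.50 ± 0.98 (limma adjusted p = 0.944), and NAT16 of 1.08 ± 0.76 (limma adjusted p = 0.944). The median over the 18 liver genes was 0.66, beside 0.39 over all genes, and 15 were higher in the older livers, as were 73.2% of all genes. The shift of all genes goes with the liver library of panda 3: without it the medians were 0.20 and 0.08, and with FPKM divided by size factors 0.15 and -0.004, with 10 of 18 genes higher.

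A difference between tissues in the effect of age class was called for 0 of the 29 genes by limma with the panda as a block, and 0% of all 18701 genes passed. At an unadjusted p below 0.05 there was 1 gene, ALDH3A1 (limma adjusted p = 1), among 117 of all genes. With 2 older pandas against 3 young, a p that misses the threshold does not show equal levels.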

How the data were processed

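RNA of 25 libraries was sequenced on the Illumina platform. The authors used HISAT2 for alignment against ailMel1, a giant panda assembly, Cufflinks to assemble further genes over all libraries, and HTSeq to count, and deposited 1 table of FPKM values made from counts and gene lengths, with no scaling between libraries stated. Names came from the study's supplementary list of tissue-specific genes, and the members and gene lists were chosen with earlier results of these data known.

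Whole reads were recovered from the steps of the low values for 24207 of 24207 genes above 0, all within 0.0516 reads of a whole number, and gave the totals, lengths, and floors of 3 reads. Intervals and floors cover counting error only. The median length was 1389 bases, and 87.7% of the lengths of Ensembl genes were multiples of 3, so they are mostly coding lengths.

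Tissues are described by the mean and SD of 5 libraries. Size factors were medians of the ratios of FPKM to the geometric mean over 13956 genes above 0 in all libraries. Older and young pandas were tested by limma 3.58.1 in R 4.3.3, with a variance trend, on the log2(FPKM + 1) scale. Changes of low genes are understated on it. Genes with a mean above 1 FPKM in an age class of the tissue were tested, and calls had a Benjamini-Hochberg adjusted p below 0.05. The interaction of tissue and age class was fitted on all 25 libraries with the panda as a block. Both fits were run on simulated counts with a fixed spread and no differences between animals, which checks the code and not the power in these data. Libraries with the same number came from the same panda: after removal of tissue means, 49 of 50 such pairs correlated above 0.1 across genes (0.0600 to 0.521, median 0.367). For different pandas 42 of 200 pairs did so (-0.469 to 0.377, median -0.122). The removal of tissue means lowers the correlations between pandas by construction.

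Every gene meeting the name rule is named. Of the unnamed family genes at most 1 per family and tissue is named, and for age each gene called or, in the liver and kidney, the 3 with the smallest p. NR1H4, NR0B2, NR5A1, and VDR were added after their values were seen. Lists of cofactor supply (1 of 15 genes with an identifier), regulators (5 of 18), bile acid (6 of 14), vitamin D (5 of 9), and steroid hormone genes (4 of 15), of adipocyte markers (0 of 4), and of hepatocyte markers (6 of 8) fell short of the 80% required, so list counts were not made, and hepatocyte sums serve as no check of the labels. LOC100464709, LOC100470213, and LOC109488752 exceed the limit of 1 name and were added after their values were seen.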

Additional observations from a re-analysis of the deposited data

Results flagged for a closer look

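Among 65 groups of 5 libraries with a mean above 1 FPKM, 1 library lay apart from the other 4 of its tissue by Dixon's criterion, where chance gives about 1 group in 20. HSD17B2 was at 65.5 FPKM in the kidney of panda 3, against 1.62 to 9.82 FPKM in the other kidneys, and the gap to the nearest was 0.872 of the range of all 5.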

How the results depend on the processing

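None of the genes was called for age class, in a tissue or between tissues, under any alternative: a pseudocount of 0.1, no filter on low values, quantile normalization, and leaving out each panda in turn (0 to 0 genes; without panda 1 or 2 the lone older animal is assumed to vary like the young, so a 0 there says little), and, within tissues, FPKM divided by size factors and limma-voom on recovered reads. With all 25 libraries and the panda as a replicate block (correlation 0.167) 0 genes were called in each tissue, and 0 genes were called for the interaction with no replicate block. Size factors moved 14 of the 29 means in the highest tissue by more than 1 SD and 22 by more than 1.5 times (18 up, 4 down). Medians or the loss of 1 panda cannot pass 1 SD by construction. By more than 1.5 times, medians lowered CYP1A1 (4.26), CYP1A2 (134), CYP8B1 (1.33), and HSD3B1 (91.5), and the loss of panda 1 lowered CYP1A1 (18.1) and CYP8B1 (2.21). The highest tissue changed for CYP1A1 (to the lung, by medians and without panda 1 or 5) and NAT16 (to the liver, with size factors). Between 15 and 17 genes were highest in the liver and 6 or 7 in the kidney, and the heart and spleen kept 2 each. The comparison of enzyme family genes between the liver, kidney, and lung was not run, since the identifiers of the table could not be matched to names outside the study's list. Depth limits only the lowest levels: 3 reads on CYP8B1 were worth 0.115 to 0.148 FPKM in the spleen.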
